A study of Homo sapiens with 6 samples.

Results

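Mitochondrial ribosomal proteins are the protein components of the ribosome inside mitochondria, and all of them are encoded in the nucleus. Members were the protein-coding genes of the GENCODE 29 annotation whose symbol is MRPL or MRPS followed by a number and at most 1 letter. The rule gave 78 genes, 49 with large-subunit symbols (MRPL) and 29 with small-subunit symbols (MRPS), of 34913 genes with a matched transcript. All 78 passed the filter on low counts and were among the 14577 genes tested. The lowest estimated count of a member in any library was 218, for MRPL54.

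Poly(A) RNA was sequenced from THP-1 cells, an established human acute monocytic leukaemia line, held by 2 cell banks. DSMZ cells gave 3 libraries and ATCC cells gave 3. No group was treated. All cultures were kept in RPMI with 20% serum at 37 °C and 5% CO2, grown for 48 h after seeding, split, grown for 24 h more and harvested. Both stocks were grown at the same time and each replicate was a separate expansion of its bank's stock, per the labels, so the errors below describe expansions and not several vials of a bank. Library totals were 23413428 to 37119721 estimated counts in DSMZ libraries and 25632895 to 28198941 in ATCC libraries. The second ATCC library stood apart from the other ATCC libraries (chi-square per degree of freedom over genes 61.2 and 102.7, against 12.7 between the other pair), and counts of members are also given without it.

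The cell type label was checked with marker genes. All 11 monocytic markers were detected, with a summed level of 3101 to 3270 TPM (transcript abundance corrected for length and scaled to the same total in each library) in DSMZ libraries and 3428 to 4275 in ATCC libraries. The largest parts were ELANE (means of 1458 TPM in DSMZ and 1054 in ATCC) and AZU1 (650 and 1600). In the edgeR test described below, 4 of the 11 were higher in DSMZ cells and 4 lower, against 24.1% and 25.7% of all tested genes. The 4 B cell markers summed to 4.15 to 4.98 TPM in DSMZ and 2.38 to 2.79 in ATCC, with MS4A1 at 0, and the 4 T and NK cell markers to 0.397 to 0.760 in DSMZ and 1.11 to 1.51 in ATCC, with CD3E at 0. The 5 erythroid and megakaryocyte markers summed to 0.702 to 1.38 TPM in DSMZ and 0.520 to 2.10 in ATCC (PF4 and HBG1 at 0), the 4 epithelial markers to 4.02 to 7.30 in DSMZ and 3.42 to 4.70 in ATCC, and the 4 fibroblast markers to 0.963 to 1.36 in DSMZ and 0.427 to 1.12 in ATCC. The part of these markers in the results was not tested. In these bulk samples, fewer cells of a type and less RNA per cell cannot be told apart.

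The mitochondrial ribosome translates the few messenger RNAs of the mitochondrial genome, which encode core subunits of the respiratory chain and the ATP synthase. Its small subunit reads the messenger RNA, and its large subunit forms the peptide bonds and passes the product towards the inner membrane. Many of its proteins descend from bacterial ribosomal proteins, while others are found only in mitochondria. Their genes lie scattered over the nuclear chromosomes.

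Promoter sequences were taken from RefSeq (GRCh38.p14, 250 bases before to 50 after the gene start), which held 69 of the 78 members. MRPL2, MRPL10, MRPL13, MRPL15, MRPL21, MRPL23, MRPL35, MRPS28 and MRPS36 were not matched. These windows were searched on both strands for 3 words read by factors known from nuclear-encoded mitochondrial genes: CCGGAAG (ETS family, which includes the GABP factor), AAGATGGC (YY1) and the NRF1 word, which is GCGC, any base and TGCGC. The ETS word was present in 29 of 69 member promoters (42.0%), against 10.7% of all 27305 RefSeq promoters and 14.2% of the 15843 of protein-coding genes. The YY1 word was present in 20 (28.99%), against 3.03% of all promoters and 3.91% of those of protein-coding genes. The NRF1 word was present in 8 (11.6%), against 6.28% and 8.58%. In no member did one of these words overlap another. At least 1 of the 3 words was found in 45 members (65.2%), against 17.9% of all promoters and 23.6% of those of protein-coding genes. By contrast, the word TATAAA was found in 2 members (2.90%), against 11.95% of all promoters and 9.63% of those of protein-coding genes. CCAAT was found in 20 (28.99%), against 35.7% and 36.4%. Words of the ETS family lay within 50 bases of the start in 24 of the 29 members that had one (82.8%), against 56.3% of all promoters that had one, and the YY1 word in 16 of 20 (80.0%), against 62.6%. The NRF1 word went the other way, with 1 of 8 members (12.5%), against 51.2%.

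The following 30-base stretches are shown because they hold the ETS and YY1 words of genes that were higher in DSMZ cells. Each is written 5′ to 3′ on the strand of the gene, with the word in capitals. An ETS word on the opposite strand reads CTTCCGG.
MRPL43 (chr10:100987497-100987526, minus strand): tcgtcccggaaCCGGAAGcctcgaggttta
MRPL51 (chr12:6493348-6493377, minus strand): cggcaggcggaCCGGAAGcactgaggcggg
MRPL51 (chr12:6493223-6493252, minus strand): gggtaaggcccAAGATGGCtgtcttcgcct
MRPS16 (chr10:73252621-73252650, minus strand): cggatcatccgCTTCCGGagtcgaggtttt
MRPS26 (chr20:3046004-3046033, plus strand): tccccgcgccgCTTCCGGggcacggtggcg
MRPS18B (chr6:30617852-30617881, plus strand): gggcgtacgtcAAGATGGCggcgtctgtat
MRPL38 (chr17:75904860-75904889, minus strand): aggccggagggAAGATGGCggcgccctggt
MRPS31 (chr13:40771204-40771233, minus strand): aaggcgccaggCCGGAAGcggaagagaggg

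Genes that were lower in DSMZ cells held the same words, and 5 of them are shown for comparison.
MRPL50 (chr9:101398577-101398606, minus strand): ggatctcatcgAAGATGGCggcgcgatctg
MRPL42 (chr12:93467511-93467540, plus strand): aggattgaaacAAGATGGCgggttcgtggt
MRPL53 (chr2:74472734-74472763, minus strand): gcagccggcggCCGGAAGtctatcccgcag
MRPL33 (chr2:27771700-27771729, plus strand): cgggccgtgccCCGGAAGcagttgttgttg
MRPL58 (chr17:75012651-75012680, plus strand): ggaagcgcccgCCGGAAGcagtcgcaagac
The ETS word was present in 7 of the 12 matched members that were higher in DSMZ cells, 6 of the 18 that were lower and 16 of the 39 that did not pass the test. The YY1 word was present in 5, 3 and 12 of these. Both words thus occurred in members called in either direction. None of the 3 words was found in the windows of 24 of the 69 matched members, which included higher, lower and uncalled genes. Among them were MRPL41, MRPL55, MRPL24, MRPS2 and MRPS17, all lower in DSMZ cells, and MRPS15, which was higher.

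The messages of the mitochondrial ribosome differed between the banks in both directions, as did tested genes at large. More members were lower than higher in DSMZ cells. In edgeR's quasi-likelihood test, calls were made at an adjusted p under 0.05 over all tested genes. By this measure 13 of 78 members (16.7%) rose in DSMZ cells, 24 (30.8%) fell and 41 did not pass. Among all tested genes, 24.1% were higher in DSMZ and 25.7% lower, 49.8% in all. The median log2 fold change was -0.15 over the members and 0.01 over all tested genes. On the scale of CPM (counts scaled to library size with edgeR's TMM factors, not to length), the libraries of the banks did not overlap for 52 members. Of these, 19 had DSMZ above ATCC and 33 had DSMZ below. Over all tested genes these shares were 31.6% and 30.7%, or 62.4% in all. Without the second ATCC library, 21 members were higher and 28 lower, and 64.0% of all genes were called in that fit, against 49.8% with it. With any other library left out, 7 to 9 were higher and 11 to 26 lower, and 37.1 to 50.2% of all genes were called in those fits.

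Most of the falls were in genes of the large subunit, which also held 49 of the 78 members. Of its 49 genes, 5 (10.2%) were higher in DSMZ cells and 18 (36.7%) lower, with a median of -0.19. Of the 29 small-subunit genes, 8 (27.6%) were higher and 6 (20.7%) lower, with a median of -0.00. The shares over all tested genes were 24.1% higher and 25.7% lower, and those of the small subunit lay near them. The 30 large-subunit proteins with bacterial relatives held 1 gene that rose (3.33%) and 10 that fell (33.3%), with a median of -0.20. The 19 mitochondria-specific large-subunit proteins held 4 (21.1%) and 8 (42.1%), with a median of -0.03. In the small subunit, 3 of 16 bacterial-type genes rose and 4 fell (median -0.14), and of the 10 mitochondria-specific genes 4 rose and 2 fell (median 0.17). Genes are not replicates, so the subunits were compared by their sums in each library.

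**Figure D1:**
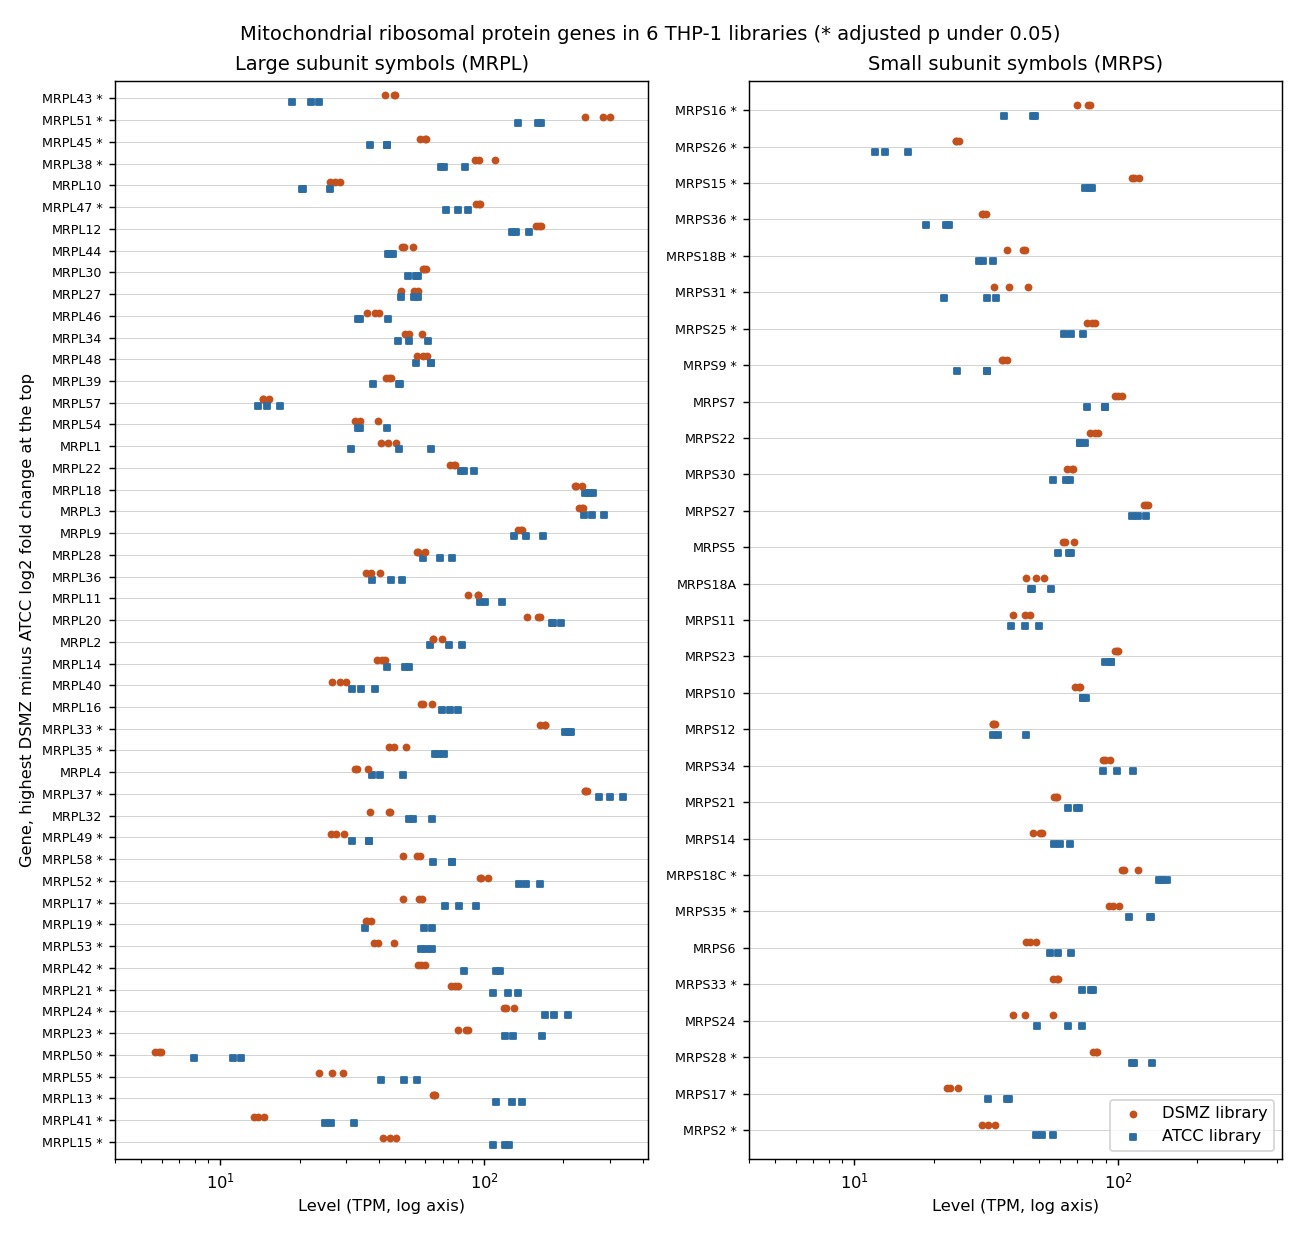
Level of each of the 78 genes in TPM (log axis) in the 3 DSMZ libraries (orange circles) and the 3 ATCC libraries (blue squares), large-subunit symbols on the left and small-subunit symbols on the right, ordered by log2 fold change. Starred genes passed an adjusted p of 0.05 (23 of 49 on the left and 14 of 29 on the right).

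The summed level of the 49 large-subunit genes was 3746, 3811 and 3746 TPM in DSMZ libraries, against 4135, 4557 and 4387 TPM in ATCC libraries. Every DSMZ library was below every ATCC library. The means were 3768 ± 37.9 TPM in DSMZ and 4359 ± 212 TPM in ATCC (SD, n = 3 each), a difference of -592 TPM or -13.6% (exact two-sided permutation test, p = 0.1, the smallest that 3 against 3 allows). The 29 small-subunit genes summed to 1859, 1911 and 1846 TPM in DSMZ libraries, against 1847, 1998 and 1940 TPM in ATCC libraries. These ranges overlapped, with means of 1872 ± 34.4 TPM in DSMZ and 1928 ± 76.2 TPM in ATCC (SD, n = 3 each; exact permutation p = 0.3), and on the CPM scale the difference turned to 68.1 CPM higher in DSMZ. The ratio of the large to the small sum was 2.01, 1.99 and 2.03 in DSMZ libraries, against 2.24, 2.28 and 2.26 in ATCC libraries. The ratio did not overlap between the banks, with means of 2.01 ± 0.0175 in DSMZ and 2.26 ± 0.0211 in ATCC (SD, n = 3 each; exact permutation p = 0.1, the smallest possible). Moving MRPS18A and MRPS30, whose proteins sit in the large subunit, to that side and leaving out MRPS36 gave 2.25 in DSMZ and 2.49 in ATCC. All members together made up 0.564% ± 0.00720 of all TPM in DSMZ cells and 0.629% ± 0.0289 in ATCC cells (SD, n = 3 each).

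**Figure D2:**
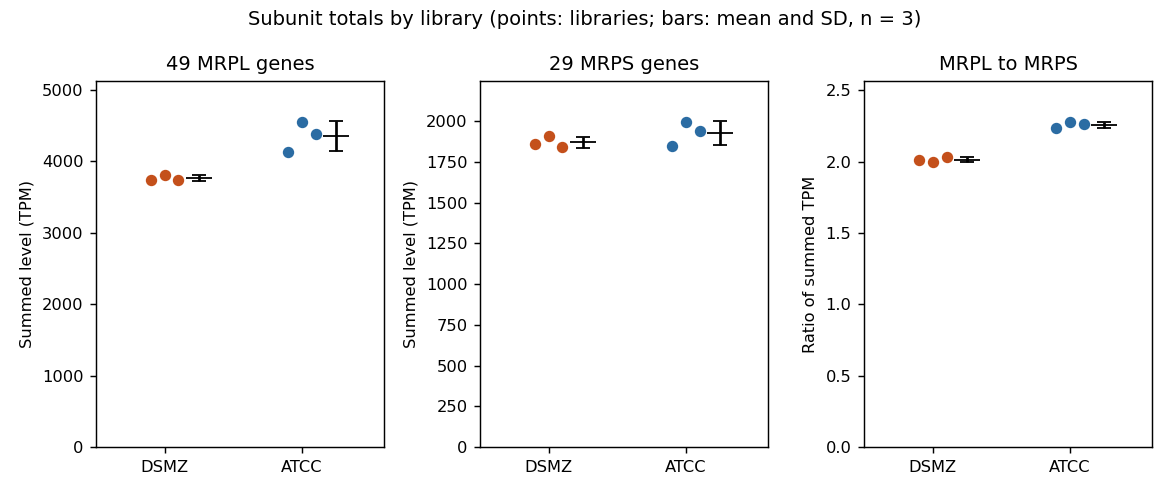
Summed TPM of the 49 MRPL genes, of the 29 MRPS genes, and the ratio of these sums, per library (points) with the mean and SD (bars, n = 3), DSMZ left and ATCC right. The large-subunit sum and the ratio do not overlap between the banks (ratio means 2.01 in DSMZ and 2.26 in ATCC), while the small-subunit sums do.

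The lower large-subunit sum of DSMZ cells had its largest parts on chromosomes 1, 11 and 8. The 5 large-subunit genes on chromosome 1 summed to 685 TPM in DSMZ and 874 TPM in ATCC, a difference of -189 TPM. The 7 on chromosome 11 contributed -161 TPM, the 2 on chromosome 8 -135 TPM and the 6 on chromosome 2 -86.1 TPM. Chromosomes 12 and 17 went the other way with 76.5 and 56.0 TPM. Single genes weighed heavily in both directions, from -73.5 TPM for MRPL15 and -65.0 TPM for MRPL24 to 122 TPM for MRPL51.

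Levels of the members spanned a wide range that the banks largely shared. Mean TPM over the 6 libraries ran from 8.10 for MRPL50 to 273 for MRPL37, with a median of 61.1, and 15 members reached 100 TPM. The bank means had a Spearman rho of 0.89 over the 78 genes, a description across genes that share libraries and depth. The median coefficient of variation within a bank was 4.38% in DSMZ and 10.004% in ATCC. Next to MRPL37, the most abundant members were MRPL3, MRPL18, MRPL51, MRPL33 and MRPL20. Levels and subunit sums take in transcripts of every type. The leading transcript was typed as protein-coding in MRPL37, MRPL3, MRPL51 and MRPL20. In MRPL18 and MRPL33 it was not, and it held 65.1 to 73.6% and 60.7 to 74.0% of their counts. A second such transcript held 25.4 to 30.2% in MRPL18. Some less abundant members were also led by transcripts of other types, such as MRPL40 (80.2 to 92.6%) and MRPL49 (67.6 to 89.5%). MRPL3, which reaches from the surface of the large subunit towards the peptidyl transferase centre, had 235, 228 and 237 TPM in DSMZ libraries, against 256, 239 and 284 TPM in ATCC libraries (log2 fold change -0.15 ± 0.08, edgeR adjusted p = 0.187). MRPL18, related to the bacterial protein that binds 5S rRNA, had 222, 236 and 223 TPM in DSMZ, against 242, 258 and 251 TPM in ATCC (-0.14 ± 0.09, edgeR adjusted p = 0.219). Neither passed the test, although their DSMZ libraries lay below the ATCC libraries. MRPL37 had 245, 241 and 241 TPM in DSMZ, against 273, 337 and 300.4 TPM in ATCC, and its fall of -0.32 ± 0.11 passed narrowly (edgeR adjusted p = 0.0467) and was not called in 11 of 19 other settings. The order of MRPL37, MRPL3 and MRPL18 was the same in the means of both banks, whereas MRPL51 had the highest mean of all members in DSMZ, 275 TPM, and 153 TPM in ATCC.

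The 4 largest rises lay on chromosomes 10, 12 and 20. MRPL43 (chr10:100969458-100987515, GRCh38), a mitochondria-specific protein of the large subunit, had 42.1, 45.9 and 45.7 TPM in DSMZ libraries, against 18.7, 23.7 and 22.0 TPM in ATCC libraries (2.17-fold, log2 1.11 ± 0.14 SE, edgeR adjusted p = 0.0006). MRPL51 (chr12:6491886-6493841), also specific to mitochondria, had 282, 242 and 301 TPM in DSMZ, against 135, 160.3 and 165 TPM in ATCC (2.04-fold, log2 1.03 ± 0.12, edgeR adjusted p = 0.000357). For both genes every DSMZ library was well above every ATCC library. MRPS16 (chr10:73248843-73252693), a bacterial-type protein of the small subunit, had 77.1, 78.1 and 70.1 TPM in DSMZ, against 37.1, 47.7 and 48.6 TPM in ATCC (1.85-fold, log2 0.89 ± 0.10, edgeR adjusted p = 0.000375). MRPS26 (chr20:3045945-3048254) had 24.2, 24.9 and 24.2 TPM in DSMZ, against 11.99, 15.96 and 13.1 TPM in ATCC (log2 0.86 ± 0.15, edgeR adjusted p = 0.00222). The libraries did not overlap for either gene, and the genes within 5 Mb of all 4 had medians between 0.91 and 1.07. Transcript shares were also compared, and in 0 of the 78 members did the transcript with most counts differ between the banks in every library. In MRPL43 the noncoding transcript MRPL43-213 held 30.8, 39.7 and 38.9% of the counts in DSMZ, against 74.3, 47.2 and 36.4% in ATCC, shares that overlapped. The protein-coding transcript MRPL43-203 held 48.5, 29.8 and 40.7% in DSMZ, against 9.23, 24.97 and 24.7% in ATCC, shares that did not overlap.

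A pair of genes with small-subunit symbols rose above the middle range of their neighbours. MRPS15 (chr1:36455718-36464437), a bacterial-type small-subunit protein, had 113, 115 and 119.9 TPM in DSMZ libraries, against 74.9, 79.8 and 78.6 TPM in ATCC libraries (log2 0.66 ± 0.12, edgeR adjusted p = 0.00319). Its 110 tested neighbours within 5 Mb had a median of -0.09 and a middle range (25th to 75th percentile) of -0.44 to 0.24, which MRPS15 exceeded. MRPS36 (chr5:69217760-69230129), named as a ribosomal protein but known as a component of the alpha-ketoglutarate dehydrogenase complex, had 31.7, 30.6 and 30.6 TPM in DSMZ, against 22.8, 18.7 and 22.3 TPM in ATCC (log2 0.57 ± 0.10, edgeR adjusted p = 0.00281). Its neighbours had a median of 0.11, and MRPS36 lay just above their middle range, which rounds to -0.22 to 0.57. Neither gene overlapped between the banks.

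Smaller rises were seen for MRPL45, MRPS18B, MRPL38 and MRPS31. MRPL45, which sits near the exit of the nascent chain and binds the inner membrane, had 57.1, 59.6 and 60.4 TPM in DSMZ, against 37.0, 42.8 and 42.7 TPM in ATCC (0.55 ± 0.11, edgeR adjusted p = 0.00537). All of its counts came from transcripts that were matched by gene symbol and not by transcript ID, and its pseudogene MRPL45P2 reached 7.65% of its level. MRPL38 had 95.3, 109.9 and 92.8 TPM in DSMZ, against 70.7, 84.6 and 68.5 TPM in ATCC (0.42 ± 0.13, edgeR adjusted p = 0.0273), a call lost in 8 of 19 other settings. MRPS31 had 45.8, 33.8 and 38.6 TPM in DSMZ, against 31.8, 21.9 and 34.3 TPM in ATCC (0.38 ± 0.13, edgeR adjusted p = 0.0428). Its TPM ranges overlapped, its call was lost in 12 of 19 other settings, and reads may be split with the related loci MRPS31P5 and MRPS31P4, which reached 24.2% and 22.6% of its level. The remaining members that rose were MRPS25, MRPS9 and MRPL47, by 0.32 to 0.37.

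The 3 largest falls were on chromosomes 8 and 9, where MRPL50 and MRPS2 also fell. MRPL15 (chr8:54135210-54147901), a bacterial-type large-subunit protein, had 44.2, 46.4 and 41.4 TPM in DSMZ libraries, against 108, 124 and 120.3 TPM in ATCC libraries (2.65-fold lower in DSMZ, log2 -1.40 ± 0.11, edgeR adjusted p = 6.99e-05). MRPL13 (chr8:120380761-120445402), likewise of bacterial type, had 65.2, 63.9 and 64.7 TPM in DSMZ, against 139, 111 and 128 TPM in ATCC (1.84-fold lower, log2 -0.88 ± 0.09, edgeR adjusted p = 0.000254). All DSMZ values of both genes lay below all ATCC values, with a tight spread among DSMZ libraries. MRPL41 (chr9:137551199-137552555), a mitochondria-specific large-subunit protein, had 13.9, 14.6 and 13.4 TPM in DSMZ, against 25.01, 32.3 and 26.4 TPM in ATCC (log2 -0.98 ± 0.14, edgeR adjusted p = 0.00105). MRPL50 (chr9:101387633-101398614), the least abundant member, had 5.64, 5.87 and 5.99 TPM in DSMZ, against 12.04, 7.93 and 11.2 TPM in ATCC (log2 -0.80 ± 0.15, edgeR adjusted p = 0.00331). MRPS2 (chr9:135499984-135504673), a bacterial-type small-subunit protein, had 34.2, 32.2 and 30.5 TPM in DSMZ, against 48.8, 56.5 and 51.6 TPM in ATCC (log2 -0.69 ± 0.14, edgeR adjusted p = 0.00428). Both subunits were thus represented among the falls on chromosome 9, and the libraries did not overlap for any of these genes.

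Falls elsewhere were mostly of large-subunit genes. MRPL55 (chr1:228106679-228109312) had 23.6, 29.3 and 26.5 TPM in DSMZ, against 40.6, 55.6 and 49.9 TPM in ATCC (log2 -0.85 ± 0.17, edgeR adjusted p = 0.00465). MRPL24 (chr1:156737303-156741590), a bacterial-type protein that in bacteria starts assembly of the large subunit, had 121, 129.5 and 119 TPM in DSMZ, against 170.4, 209 and 185 TPM in ATCC (log2 -0.65 ± 0.13, edgeR adjusted p = 0.00547). MRPL23 and MRPL21, both on chromosome 11 and of bacterial type, fell by 0.71 and 0.62 on the log2 scale. MRPS17 on chromosome 7, a bacterial-type small-subunit protein, fell by 0.57. None of these 5 overlapped between the banks.

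The 3 human relatives of bacterial protein S18 received different calls. MRPS18B (chr6:30617709-30626395) rose, with 37.8, 43.5 and 44.2 TPM in DSMZ libraries, against 29.6, 33.7 and 30.9 TPM in ATCC libraries (log2 0.46 ± 0.14, edgeR adjusted p = 0.0252), although 85.8% of its counts came from transcripts matched by symbol only and the call was lost in 8 of 19 other settings. MRPS18C (chr4:83455932-83469735) fell, with 105, 119 and 103 TPM in DSMZ, against 147, 153 and 143 TPM in ATCC (log2 -0.30 ± 0.09, edgeR adjusted p = 0.0285), a call lost in 6 of 19 other settings. MRPS18A, whose protein belongs to the large subunit, had 52.3, 48.9 and 45.0 TPM in DSMZ, against 47.0, 55.5 and 47.1 TPM in ATCC (log2 0.03 ± 0.13, edgeR adjusted p = 0.885). Its libraries overlapped. MRPS30, the other member with an S symbol in the large subunit, did not pass the test either (log2 0.16 ± 0.10, edgeR adjusted p = 0.210).

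By chromosome, the members went with the other genes of their chromosome. The median log2 fold change of members and that of all tested genes had a Pearson r of 0.87 over 21 chromosomes with a member, and 0.85 over the 12 with at least 3 members, a description in which both medians come from the same libraries. On chromosome 10 both members rose (median 1.00, all genes 1.03), where 76.0% of tested genes were higher in DSMZ and 4.68% lower. All 3 members on chromosome 8 fell (median -0.88, all genes -0.86), where 69.7% of genes were lower and 4.05% higher, and so did all 3 on chromosome 9 (median -0.80, all genes -0.41), where 50.7% were lower and 7.27% higher. On chromosome 11, 4 of 7 fell (median -0.34, all genes -0.36), where 46.1% of genes were lower and 8.52% higher. On chromosome 17, 2 of 8 rose and 1 fell (median 0.26, all genes 0.38), where 47.1% of genes were higher and 6.94% lower. On chromosome 3, 2 of 4 rose (median 0.25, all genes 0.31), where 37.5% were higher and 14.1% lower. MRPS31 on chromosome 13 and MRPS26 on chromosome 20 rose where 39.9% and 45.2% of genes were higher, and 15.8% and 10.2% lower.

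Chromosomes 1 and 2, with 8 members each, held calls in both directions. On chromosome 1, 1 member rose and 3 fell, where 15.8% of genes were higher and 32.0% lower, and on chromosome 2, 1 rose and 4 fell, where 26.3% were higher and 23.1% lower. Members on some other chromosomes lay apart from the median of their chromosome. On chromosome 7 all 4 log2 fold changes lay between -0.57 and -0.33, with 2 called lower (23.1% of genes on that chromosome), while the median of all its genes was -0.03. On chromosome 12 the members split, with MRPL51 at 1.03, MRPS35 at -0.31 and MRPL42 at -0.55, and all 3 were called (37.1% of genes higher, 19.6% lower). On chromosome 6 the median was -0.09 for members and 0.20 for all genes, with 1 of 6 called higher (31.8% of genes). On chromosome 19, 0 of 4 members were called in edgeR's test, 0 were under an unadjusted p of 0.05 and 0 were called by DESeq2, where 18.6% of genes were higher and 21.1% lower. No member lies on chromosomes 18, X or Y.

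**Figure D3:**
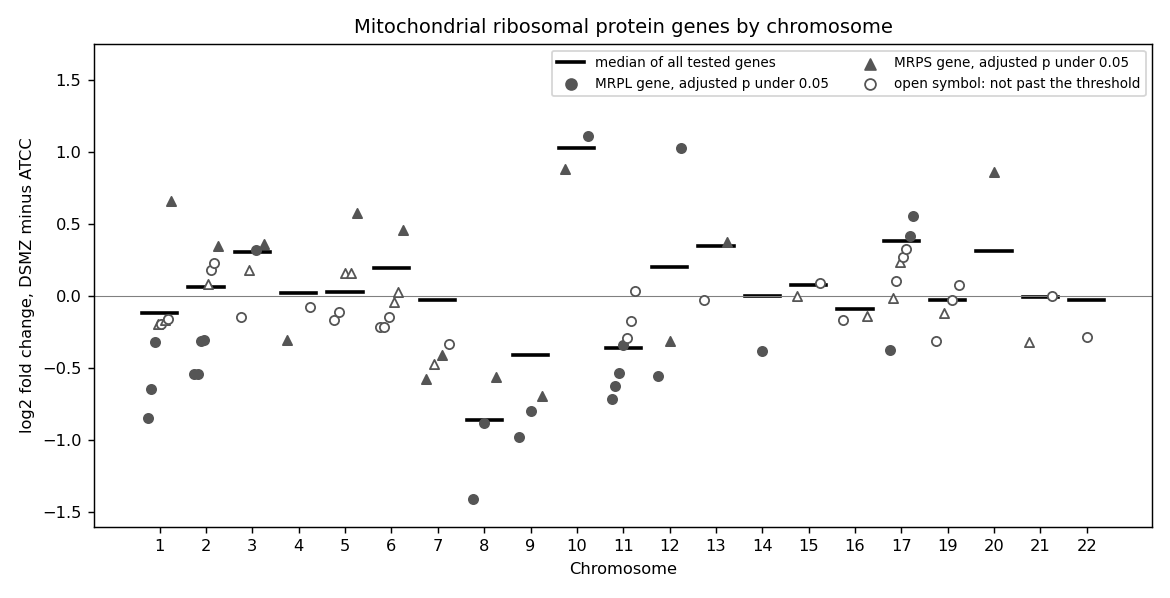
Log2 fold change (DSMZ minus ATCC) of each gene by chromosome, circles for MRPL and triangles for MRPS, filled where the adjusted p was under 0.05, with the median of all tested genes of the chromosome as a black bar. Members follow the bars on chromosomes 8 and 10 (bars at -0.86 and 1.03), whereas all 4 members on chromosome 7 lie below its bar.

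Within chromosomes, each member was set beside the median of the other tested genes within 5 Mb of its start. Over the 78 members, the log2 fold change and the neighbours' median had a Pearson r of 0.85 and a Spearman rho of 0.80. The same Pearson r was 0.36 over all 14550 tested genes that had neighbours and 0.49 over the 9075 protein-coding genes at least as abundant as the least abundant member. In all, 72 of 78 members (92.3%) were within 0.5 of their neighbours' median, against 62.1% of all tested genes and 73.7% of the abundant coding genes. The median absolute distance was 0.14 for members, 0.36 for all genes and 0.28 for abundant coding genes. Overlapping windows, shared libraries and depth enter each of these values.

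The calls sorted by region. Of the 21 members whose neighbours had a median of 0.25 or more, 10 rose and 1 fell, against 48.9% and 8.998% of all genes in such regions. Of the 20 members whose neighbours had a median of -0.25 or less, 16 fell, against 54.1% of all genes there. The other 37 members lay in flat regions, where 3 rose and 7 fell, against 18.9% and 22.4% of all genes. In the regions with low medians, 15 of the 20 members were large-subunit genes, and in those with high medians 13 of 21 were. The ratio of large to small sums over the 37 members in flat regions alone was 1.65, 1.63 and 1.64 in DSMZ libraries, against 1.95, 1.98 and 1.93 in ATCC libraries. This ratio, computed after the regional pattern had been seen, did not overlap between the banks either. Relative to their neighbours, 36 of 49 large-subunit genes and 20 of 29 small-subunit genes had lower values, with median differences of -0.18 and -0.05.

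**Figure D4:**
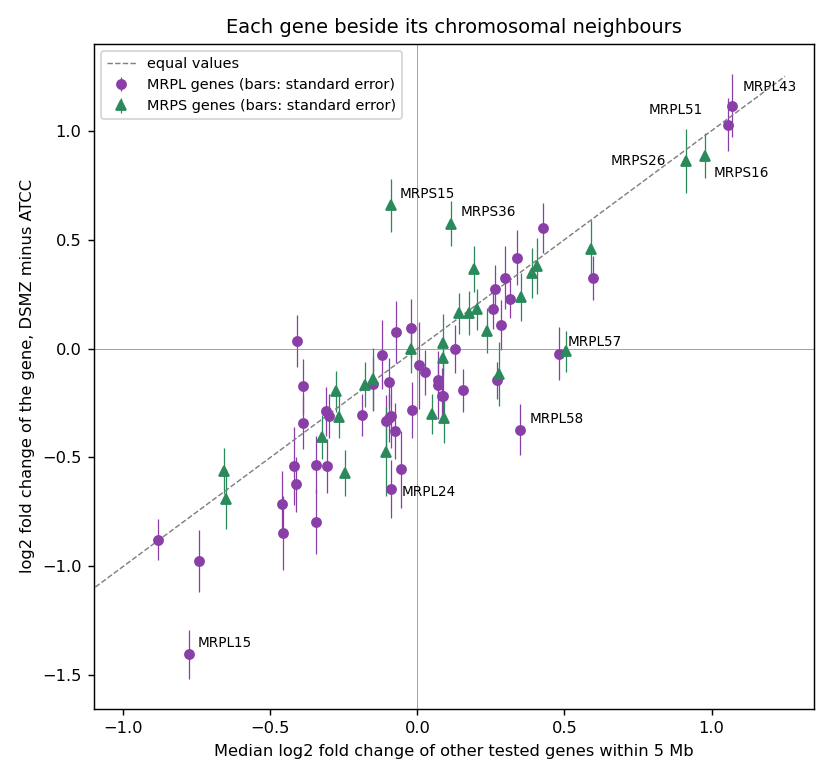
Log2 fold change of each gene (vertical axis, bars are standard errors) against the median log2 fold change of the other tested genes within 5 Mb (horizontal axis), MRPL in purple and MRPS in green, with a dashed line where both are equal. Most points lie along the line (72 of 78 within 0.5), and MRPS15, MRPL15, MRPL24 and MRPL58 are among the 6 that stand off it.

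The 6 members farther than 0.5 from their neighbours were MRPS15 and MRPL15, MRPL24, MRPL58, MRPS23 and MRPL57. MRPS15 lay above its neighbours and the other 5 below. MRPL15 fell by 1.40 where the neighbours' median was -0.78, and MRPL24 fell by 0.65 where it was -0.09. MRPL58, a release factor of the family that frees peptides from stalled ribosomes and also a part of the large subunit, had 55.6, 57.4 and 49.4 TPM in DSMZ libraries, against 64.1, 75.7 and 75.5 TPM in ATCC libraries (log2 -0.37 ± 0.12, edgeR adjusted p = 0.0322), where its 100 neighbours on chromosome 17 had a median of 0.35. That call was lost in 7 of 19 other settings. MRPL38, 0.886 Mb from MRPL58, rose by 0.42, so that members of one region were called in opposite directions. MRPS23 had 99.7, 99.5 and 97.2 TPM in DSMZ, against 89.0, 93.6 and 94.3 TPM in ATCC, a log2 fold change of -0.01 beside neighbours at 0.51. On the TPM scale its DSMZ libraries were all above the ATCC libraries, while on the CPM scale they overlapped. MRPL57 had 14.6, 15.3 and 14.6 TPM in DSMZ, against 13.96, 16.9 and 15.1 TPM in ATCC, a log2 fold change of -0.02 beside neighbours at 0.48.

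Many members start close to a gene on the other strand. Of the 78, 29 had a protein-coding partner that starts within 1000 bases on the opposite strand, against 16.8% of tested coding genes. Starts here were the outermost GENCODE gene ends, whereas the promoter windows above used RefSeq starts. These can differ, as in MRPL51, and in MRPS22 they lie far apart. The sources used here do not say whether reads were assigned by strand, so where partners overlap their reads cannot be told apart. MRPL43 rose by 1.11 and its partner TWNK, the helicase that unwinds mitochondrial DNA, by 1.20. MRPL51 rose by 1.03 and NCAPD2, a condensin subunit, by 0.98, and MRPL47 by 0.32 and NDUFB5, a subunit of respiratory complex I, by 0.33. MRPL41 and PNPLA7 fell by 0.98 and 1.45, MRPL50 and ZNF189 by 0.80 and 0.74, MRPL49 and FAU by 0.34 and 0.44, and MRPL52 and SLC7A7 by 0.38 and 1.91. In these 7 pairs both genes were called in the same direction. How often this held over coding pairs at large was not counted, and 49.8% of all tested genes were called. Among the 7, MRPL43 and TWNK, MRPL51 and NCAPD2, and MRPL49 and FAU overlap at their starts by these GENCODE ends. Over 28 pairs with a tested partner the Pearson r was 0.70 and 19 had the same sign, with MRPL46 and MRPS11, which are each other's partner, entering from both sides. Over 1092 pairs of coding genes the r was 0.48, with the same sign in 64.6%. Pairs of opposite sign among the 28 included MRPL18 (-0.14) and TCP1 (0.25), MRPL57 (-0.02) and SKA3 (0.57), and MRPS18C (-0.30) and HELQ (0.27). In none of these were both genes called.

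Other genes of mitochondrial translation were called in both directions, and their counts are to be read against the 24.1% of all tested genes that were higher in DSMZ and the 25.7% that were lower. Of 5 mitoribosome proteins with other symbols, CHCHD1 on chromosome 10 rose (42.9 ± 3.16 TPM in DSMZ and 23.9 ± 1.303 in ATCC, SD, n = 3 each, log2 0.90 ± 0.11 SE), and DAP3, PTCD3, AURKAIP1 and GADD45GIP1 did not pass. Of 31 assembly and rRNA modification factors, 5 rose and 5 fell (16.1% each), with a median of 0.09. MTERF3, which acts in assembly of the mitochondrial ribosome and lies on chromosome 8, fell by 1.42, the RNA methyltransferases TRMT61B and TRMT2B fell by 0.99 and 0.90, and C1QBP, a multifunctional matrix protein, rose by 0.68. Of 16 translation factors, 4 rose and 3 fell (median 0.15), among them the release factor homologue MTRF1 (0.74), GFM2, which recycles ribosomes (0.66), MRRF, the ribosome recycling factor (-0.63), and C12orf65, which rescues stalled ribosomes (-0.66). Of 22 genes that act in making charged mitochondrial tRNAs, 4 rose and 6 fell (median -0.09), with VARS2 at 1.23, GATC at -0.75, IARS2 at -0.73 and NARS2 at -0.65.

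Of 15 regulators of mitochondrial transcription and biogenesis, 5 rose (33.3%, against 24.1% of all tested genes) and 1 fell (6.67%, against 25.7%), with a median of 0.25. TFAM, which packages mitochondrial DNA and helps to start its transcription, had 72.4, 70.7 and 69.8 TPM in DSMZ libraries, against 41.0, 19.1 and 34.1 TPM in ATCC libraries (log2 1.20 ± 0.25, edgeR adjusted p = 0.00577). PPRC1, a coactivator of the PGC-1 family, rose by 0.92, and both genes lie on chromosome 10. PPARGC1A, which encodes the coactivator PGC-1 alpha, had 2.41, 1.93 and 2.66 TPM in DSMZ, against 0.0345, 0.0178 and 0.0358 TPM in ATCC, values that rest on 205, 235 and 337 estimated counts in DSMZ and 5, 1 and 4 in ATCC. TFB2M, a mitochondrial transcription factor, fell by 0.49. Among factors that read the promoter words above, YY1 rose by 0.42 (edgeR adjusted p = 0.0061). NRF1 (0.02) and the GABP genes GABPA (0.46) and GABPB1 (0.34) did not pass. A link to the members was not tested. Of the 12 tested genes of the mitochondrial genome, 4 rose (33.3%, against 24.1% of all tested genes) and 0 fell (against 25.7%), with a median of 0.22 over the 12. The 4 encode a complex I subunit (MT-ND6, log2 1.34), a cytochrome oxidase subunit (MT-CO3, 0.79), an ATP synthase subunit (MT-ATP6, 0.64) and cytochrome b (MT-CYB, 0.61).

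**Figure D5:**
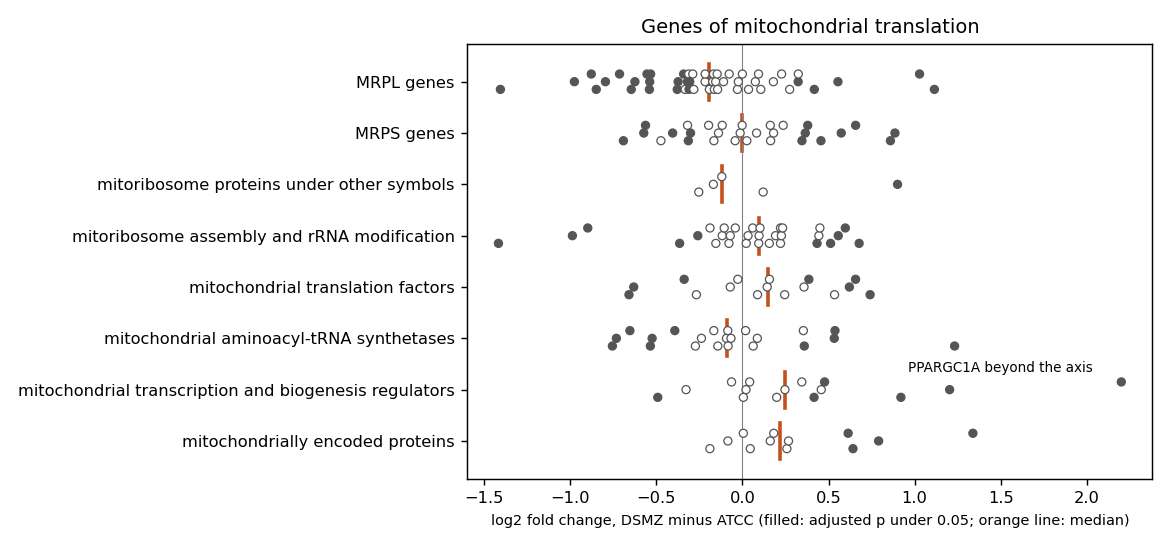
Log2 fold change (DSMZ minus ATCC) of the MRPL and MRPS genes and of 6 other groups of genes of mitochondrial translation, filled where the adjusted p was under 0.05, with the median of each group as an orange line. Group medians run from -0.19 for the MRPL genes to 0.25 for the transcription and biogenesis regulators, whose member PPARGC1A lies beyond the axis.

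The second ATCC library was the one in which members deviated most by base composition. Deviations from the bank's mean had a median of 0.15 over all members in that library, -0.10 over the 26 members of lowest GC content and 0.23 over the 26 of highest, and of -0.16, 0.05 and -0.20 in the first ATCC library. In DSMZ libraries these medians lay between -0.02 and 0.02. Over the members, GC content and log2 fold change had a Pearson r of -0.03. With a correction for GC content in each library, 17 members were higher and 31 lower, and 35 of the 37 calls were kept, while the share of all genes called in that fit was 64.0%.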

How the data were processed

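Per the labels' protocols, RNA was isolated with TRIzol and RNeasy columns and libraries were made with a stranded poly(A) KAPA kit. bcl2fastq 2.20, Trimmomatic 0.35, kallisto 0.43.0 and build GRCh38 are named in the submitters' processing notes; no source used here names the release of the transcript annotation. Each library has 1 deposited file, which holds kallisto's estimated counts per transcript, not normalized, per the file headers. It also holds TPM values as deposited by the authors, which are scaled by length to the same total in each library.

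Of 179973 transcripts, 163714 (91.0%) were matched to GENCODE 29 genes by ID and 14195 by symbol (2.42 to 2.84% of counts). The other 2064 (0.184 to 0.201% of counts) were left out. Estimated counts were summed per gene, rounded and tested with edgeR 4.0.16 (R 4.3.3; filterByExpr, TMM, quasi-likelihood F test, Benjamini-Hochberg over 14577 genes, threshold 0.05), bank being the only term. Errors of log2 fold changes are standard errors, equal to the absolute fold change over the square root of F. The biological coefficient of variation was 15.9%. TPM were summed per gene for levels. Subunit sums were compared by exact permutation over libraries. On simulated counts for DSMZ against ATCC over 14397 genes the test recovered 4 of 67 simulated 1.5-fold changes, 41 of 67 simulated 2-fold changes and 62 of 66 simulated 4-fold changes and made 3 false calls. Only these genes were changed in the simulation, a far smaller share than the 49.8% called in the data. The adjusted threshold was therefore harder to pass there, and these rates do not give the power of the real comparison. Alternatives used DESeq2 1.42.0 and limma 3.58.1; figures used matplotlib 3.10.9.

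The members and lists were chosen with earlier results of these data known. Named members were the 10 highest and 10 lowest called changes without overlap in CPM, the 6 most and 4 least abundant, the 6 farthest from their neighbours and 6 fixed genes; lists give up to 4 called genes each. Members and list genes named beyond this rule were chosen after their values were seen.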

Additional observations from a re-analysis of the deposited data

How the results depend on the processing

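The 13 members called higher in DSMZ and 24 called lower became 8 and 26 under upper quartile scaling, which moved the median of all genes to -0.07 and the share of calls that were higher from 48.4% to 42.4%. In that fit 48.8% of all genes were called, against 49.8% in the main fit. Leaving out 1 library at a time gave 7 to 21 higher and 11 to 28 lower. Without ATCC replicate 2 they were 21 and 28, with 64.0% of all genes called. Without ATCC replicate 3 or DSMZ replicate 1, 2 or 3 they were 7 and 13, 7 and 12, 7 and 11, and 7 and 14. The shares of all genes called in those fits were 39.7%, 38.8%, 37.1% and 38.1%. All fits that leave out a library have fewer samples. Other settings gave 9 to 17 higher and 16 to 32 lower. The share of all genes called in them ran from 32.4% (no filter on low counts) to 64.0% (GC correction). With a replicate block, 11 were higher and 17 lower (48.1% of all genes called), and 17 and 32 with the GC correction as well (63.8%). Deviations of libraries with the same number had correlations of 0.01, 0.08 and 0.16, and DSMZ replicate 1 correlated best with ATCC replicate 2 (0.03), so the numbers do not show pairing. MRPL45 could not be tested from primary assembly transcripts or from protein-coding transcripts alone.

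In CPM, which carry the TMM factors, the small-subunit sum was 68.1 CPM higher in DSMZ. In TPM, which are scaled by length and carry no TMM factors, it was lower. The cause of this change of sign was not tested. The large-to-small ratio was 1.54 in DSMZ and 1.83 in ATCC in CPM. In TPM, leaving out 1 library kept the difference of the ratio between -0.26 and -0.24. With the GC correction, member medians moved to 0.17 on chromosome 3, 0.074 on chromosome 5, -0.94 on chromosome 8 and -0.43 on chromosome 12, and the r with neighbours stayed at 0.85. MRPL33 turned to 0.14 with protein-coding transcripts only. With 3 libraries a bank, the smallest called change of a member was -0.30 ± 0.09 (MRPS18C), while -0.47 ± 0.21 (MRPS24) was not called.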
